A study of Rattus norvegicus with 36 samples.

Results

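Repeated daily cocaine was compared with saline by RNA-seq of the dorsal striatum, in rats of the Sprague-Dawley strain. The comparison used every sample labelled Tolerant (Coc-Coc) or Saline (Sal-Sal), which came to 24 of the 36 samples and to 6 of the 9 RNA pools of the study. Coc-Coc rats were given 15 cocaine injections, and Sal-Sal rats had 15 saline injections in the same binge schedule. All were males of 8 weeks, injected intraperitoneally several times a day and killed a day after the last injection, so the injection procedure and the day without drug were shared by both groups. The remaining group, Sal-Coc, had saline and then cocaine on the last day only, with 13 saline and 3 cocaine injections by the labels. It entered the fit to estimate the spread and is quoted only beside the genes named here. Each group had 3 pools, numbered 5, 6 and 7. Each pool held the tissue of a pair of rats, so the values are means over animals, and differences between single rats cannot be seen. The labels give the tissue as dorsal striatum, while their extraction text also names the nucleus accumbens. The label could not be checked against striatal marker genes, since the gene IDs could not be paired with gene names.

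Cocaine blocks the transporter that takes dopamine back into the nerve terminal, so that dopamine stays longer around its target cells. The dorsal striatum is made up mostly of GABAergic projection neurons that carry dopamine receptors. It receives dopamine from the substantia nigra and is known for its part in action selection and habits. Immediate early genes respond to a single exposure within hours, whereas RNA taken a day after repeated exposure reads the levels that are left once such responses have largely passed. In tissue RNA, fewer cells of a type and less RNA per cell cannot be told apart.

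One of the 6 pools stood apart from all others. Coc-Coc pool 5 had 624 of 15884 tested genes that lay 2-fold or more from the median over the other 8 pools, 448 of them higher and 176 lower. Coc-Coc pools 6 and 7 had 159 and 129 such genes, and the Sal-Sal pools had 183, 136 and 146. On the first principal component, which held 29.05% of the variance of the log2 CPM values (CPM, counts scaled to the library's total), pool 5 lay at 50.58 and the other 8 pools between -11.26 and -0.6621. Its total of 39493867 counts was close to the 39347174 of pool 6, and its 4 technical replicates had a chi-square per degree of freedom of 1.021, where sampling noise alone gives 1. When sample quality weights were estimated with limma's voom, pool 5 received 0.229 and the other pools 0.712 to 2.84. The labels give no extraction or sequencing date, and RNA quality and tissue borders in that pool were not tested. Each result below is given with and without it.

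**Figure D1:**
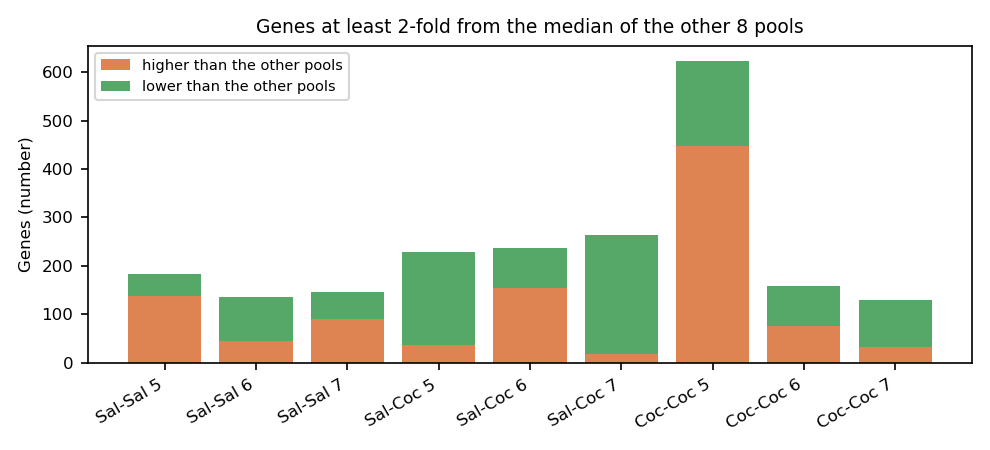
Number of genes (y axis) whose level was 2-fold or more away from the median over the other 8 pools, for each of the 9 pools (x axis), with 1 bar per pool split into genes above and below that median. Coc-Coc pool 5 has 624 such genes and each other pool between 129 and 263.

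The distance of pool 5 showed in every pairing. Between pool 5 and the other Coc-Coc pools, genes differed by a median of 0.206 and 0.234 on the log2 scale. Pools 6 and 7 differed from each other by 0.142, and the 3 pairs of Sal-Sal pools by 0.109 to 0.139. Pool 5 was about as far from saline as from its own group, at 0.202 to 0.242 from the Sal-Sal pools, whereas pools 6 and 7 were 0.109 to 0.151 from them. The number of genes at least 2-fold apart was 758 and 886 between pool 5 and its group mates, 340 between pools 6 and 7, and 213 to 353 within Sal-Sal. Thus pools 6 and 7 were about as far from the Sal-Sal pools as the Sal-Sal pools were from each other. Coc-Coc had the widest spread of the groups, with a median SD of 0.164 on the log2 scale against 0.104 in Sal-Sal (n = 3 pools each). An SD above 0.5 was found for 1465 genes in Coc-Coc and 652 in Sal-Sal. Within Coc-Coc, pool 5 was the farthest from the group's median for 48.5% of genes, pool 6 for 22.8% and pool 7 for 28.7%. The shares within Sal-Sal were 35.4%, 38.2% and 26.4% for pools 5, 6 and 7.

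The genes at least 2-fold away in pool 5 were mostly of low abundance, where fitted changes were less precise. Shares by abundance were not counted for the other pools. The 448 higher ones had a median of 2.41 CPM over the pools and the 176 lower ones 0.782 CPM. Of genes under 1 CPM, 12.5% were at least 2-fold away in pool 5, and of genes at 100 CPM or more 0.651% were. Together the 448 higher genes took 1.14% of the counts of pool 5 and 0.413% to 0.494% of those of any other pool. The 176 lower genes took 0.0421% there and 0.0704% to 0.157% elsewhere. The technical replicates, whose sum chose these genes, bear on counting error only: 447 of the 448 higher genes and 172 of the 176 lower genes were on the same side in all 4, and 272 and 53 were at least 2-fold away in all 4. The median gene of the higher set was 1.31 above the other pools on the log2 scale in pool 5, and at -0.06 and -0.13 in pools 6 and 7. Pools 6 and 7 were among the pools whose median chose these genes, so their place was partly set by that choice. The farthest genes were 6.13 above and 3.98 below the other pools on that scale. A single gene had at least 100 counts in pool 5 and at most 3 in each other pool, with 210 counts (5.16 CPM) in pool 5 and no more than 2 elsewhere. No gene showed the reverse, and no other pool had such a gene.

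Whether repeated cocaine left a difference in single genes was asked with edgeR's quasi-likelihood test. With all 9 pools, 0 of 15884 genes passed a Benjamini-Hochberg adjusted p of 0.05 (0% called), and the smallest adjusted p was 0.154. At an unadjusted p under 0.05, 1146 genes were found (7.21%), 610 higher and 536 lower in Coc-Coc, where 794 would pass if no gene differed. Without Coc-Coc pool 5, 4 of 16019 genes passed the adjusted threshold (0.025%), 3 higher and 1 lower, and the smallest adjusted p was 0.00952. The unadjusted count was then 1057 (6.6%), 549 higher and 508 lower, where 801 would pass with no difference. DESeq2 called 24 genes with all pools, 6 higher and 18 lower (0.145% of the genes to which it gave an adjusted p), and 51 without pool 5, 26 higher and 25 lower (0.281%). These p-values measure the spread between pools of different rats.

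Most genes were close to the saline level. The median gene differed by 0.11 on the log2 scale, with a median SE of 0.12, and 133 genes had a fitted change of at least 2-fold. The 95% interval of the change lay within 2-fold in either direction for 14009 genes (88.2%), and within 1.5-fold for 11067 (69.7%). Without pool 5 these counts were 14069 (87.8%) and 11556 (72.1%) of the genes then tested, with 123 genes at 2-fold or more. The biological coefficient of variation was 13.1% with pool 5 and 9.73% without it. Precision followed abundance. The median SE was 0.36 for genes under 1 CPM, 0.19 from 1 to 10 CPM, 0.09 from 10 to 100 CPM and 0.08 at 100 CPM or more. Unadjusted p-values under 0.05 made up 5.36%, 6.26%, 8.06% and 7.72% of these classes. Of the 24 DESeq2 calls, 1 was under 1 CPM and 6 were at 100 CPM or more. Without pool 5, 20 of the 51 were at 100 CPM or more. Of all tested genes, 12% were under 1 CPM and 12.6% at 100 CPM or more.

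**Figure D2:**
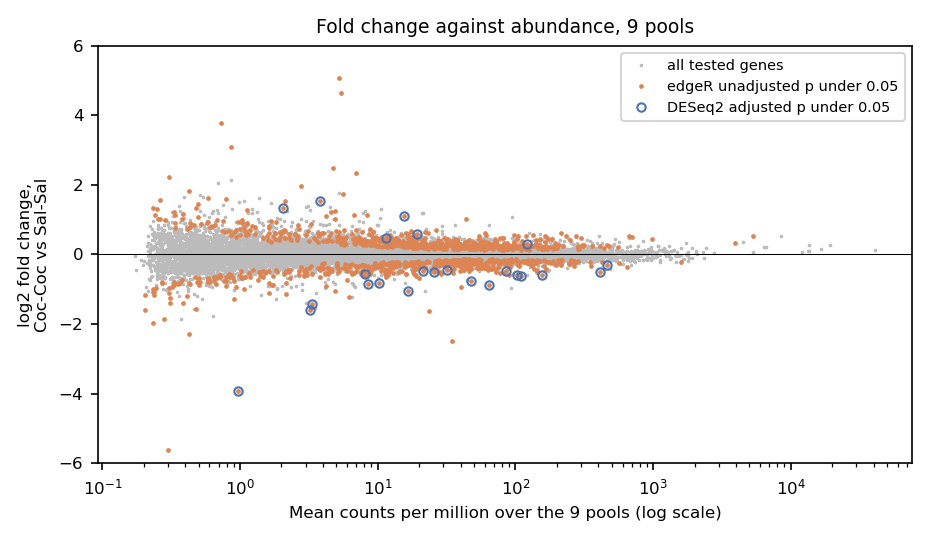
log2 fold change of Coc-Coc against Sal-Sal (y axis) by mean CPM over the 9 pools (x axis, log scale), 1 point per tested gene. Orange points are the 1146 genes with an unadjusted edgeR p under 0.05 and open circles the 24 genes called by DESeq2, of which 18 lie below 0.

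The gene with the smallest p-value was ENSRNOG00000014448, lower in Coc-Coc. Its level was 64.3, 61.4 and 57.3 CPM in Sal-Sal pools 5, 6 and 7 and 30.5, 38.4 and 38.7 CPM in the Coc-Coc pools. Every Coc-Coc pool was below every Sal-Sal pool, which held for 6.06% of all tested genes, and pool 5 was the lowest. Non-overlapping pools were a condition for naming a gene here, so the separation is not a result. The means were 61 ± 3.51 and 35.9 ± 4.64 CPM (SD, n = 3 pools each). The log2 fold change was -0.77 ± 0.09 (SE, 95% interval -0.98 to -0.56), with an edgeR adjusted p of 0.154. Without pool 5 it was -0.66 ± 0.07 with an edgeR adjusted p of 0.011, so the gene fell by this test only when the most extreme Coc-Coc pool was left out. That call was lost with the pool number as a block (edgeR adjusted p of 0.0796) and when Sal-Sal pool 6, Coc-Coc pool 6 or Coc-Coc pool 7 was left out as well (0.0718, 0.0697 and 0.213). DESeq2 gave adjusted p-values of 2.14e-08 with all pools and 1.22e-10 without pool 5. The Sal-Coc pools lay between the other groups, at 46.5, 46.4 and 43.7 CPM, though the gene was chosen by the gap between those groups.

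ENSRNOG00000042717 was the higher gene with the smallest p-value. It was counted at 8.28, 9.65 and 11.1 CPM in Sal-Sal and at 16.4, 23.7 and 22 CPM in Coc-Coc pools 5, 6 and 7. The groups did not overlap, which was a condition for naming the gene and held upward for 6.5% of all tested genes. Pool 5 was the Coc-Coc pool nearest to saline. Means were 9.68 ± 1.41 and 20.7 ± 3.8 CPM (SD, n = 3 pools each). The log2 fold change of 1.09 ± 0.16 (95% interval 0.74 to 1.44) had an edgeR adjusted p of 0.292. Without pool 5 the gene rose, by 1.23 ± 0.13 on the log2 scale with an edgeR adjusted p of 0.00952. That call was lost with the pool number as a block (edgeR adjusted p of 0.0519), with technical replicate a alone (0.169), and when Sal-Sal pool 6, Coc-Coc pool 6 or Coc-Coc pool 7 was left out as well (0.0718, 0.0697 and 0.0935). DESeq2 adjusted p-values were 9.51e-07 with all pools and 2.4e-13 without pool 5. In Sal-Coc the values were 14.7, 15.8 and 18 CPM, above all Sal-Sal pools. Those Sal-Sal pools also served to choose the gene, so this is partly set by the choice.

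A pair of less abundant genes did not pass the threshold of edgeR's quasi-likelihood test in either fit. Both passed by edgeR's likelihood ratio test, with and without pool 5. ENSRNOG00000033984 was at 1.16, 0.951 and 1.23 CPM in Sal-Sal and 2.71, 3.23 and 2.51 CPM in Coc-Coc. The groups did not overlap, as the choice required, on 33 to 45 counts a pool in Sal-Sal and 84 to 122 in Coc-Coc. Its log2 fold change was 1.33 ± 0.22 with pool 5 (edgeR adjusted p of 0.466) and 1.37 ± 0.25 without it (edgeR adjusted p of 0.258). ENSRNOG00000023546 was at 4.22, 8.04 and 5.28 CPM in Sal-Sal and 2.36, 1.93 and 1.43 CPM in Coc-Coc. Here the Sal-Sal pools were the more scattered, and all 3 stood above the Coc-Coc pools, again as the choice required. The log2 fold change was -1.6 ± 0.26 (edgeR adjusted p of 0.466) and -1.79 ± 0.29 without pool 5 (edgeR adjusted p of 0.22). DESeq2 called both genes, with adjusted p-values of 0.00158 and 5.52e-05 with all pools, and 0.0114 and 5.09e-06 without pool 5. Sal-Coc pools were at 1.61, 2.57 and 2.43 CPM for the first and 1.89, 2.14 and 1.68 CPM for the second.

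**Figure D3:**
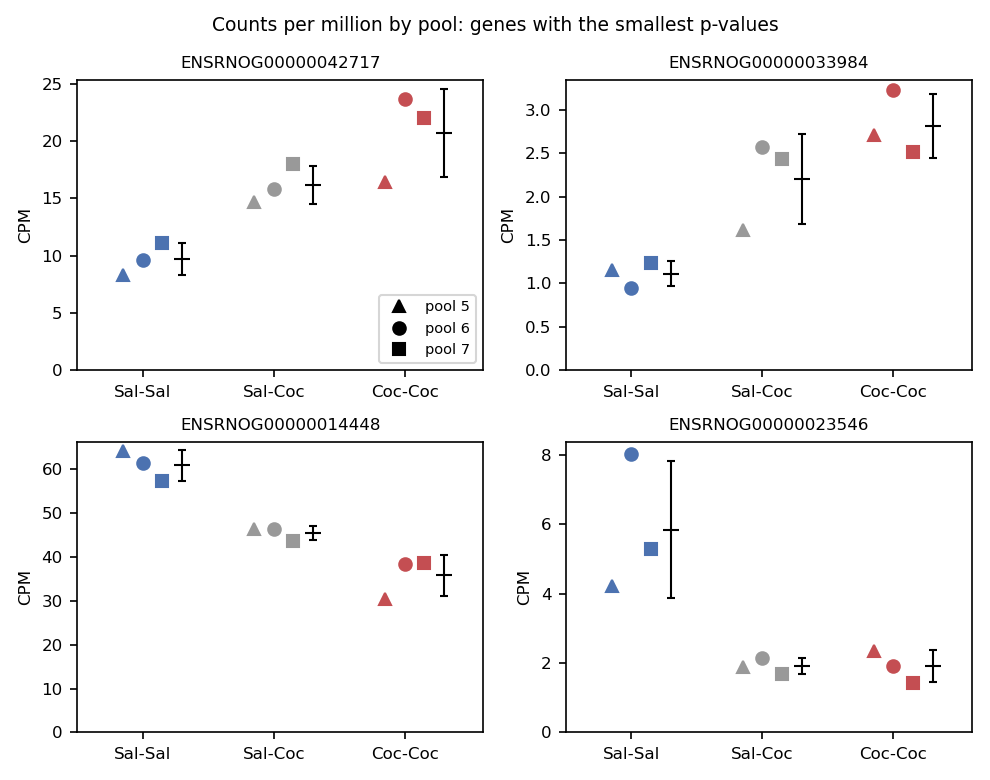
CPM (y axis, from 0) of the 4 named genes in the 3 pools of each group (x axis), with a marker shape per pool number and the group mean ± SD in black. In each panel the Coc-Coc pools (red) do not overlap the Sal-Sal pools (blue), as the choice of these genes required. The Sal-Coc pools (grey) are shown beside them and share the Sal-Sal controls.

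These genes are the extremes of a wider set. Of the genes whose Coc-Coc pools did not overlap the Sal-Sal pools, the 8 higher ones with the smallest p had log2 fold changes of 0.31 to 1.33 (median 0.44) and edgeR adjusted p-values of 0.292 to 0.677. The 8 lower ones ran from -1.6 to -0.45 (median -0.68), with edgeR adjusted p-values of 0.154 to 0.509. Without pool 5 the medians were 0.46 and -0.58, with directions that the choice of non-overlapping genes had fixed. DESeq2 called 5 of the 8 higher genes and all 8 lower genes, against 0.145% of all genes to which it gave an adjusted p. It used the same counts that chose these genes, so this is no independent evidence.

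**Figure D4:**
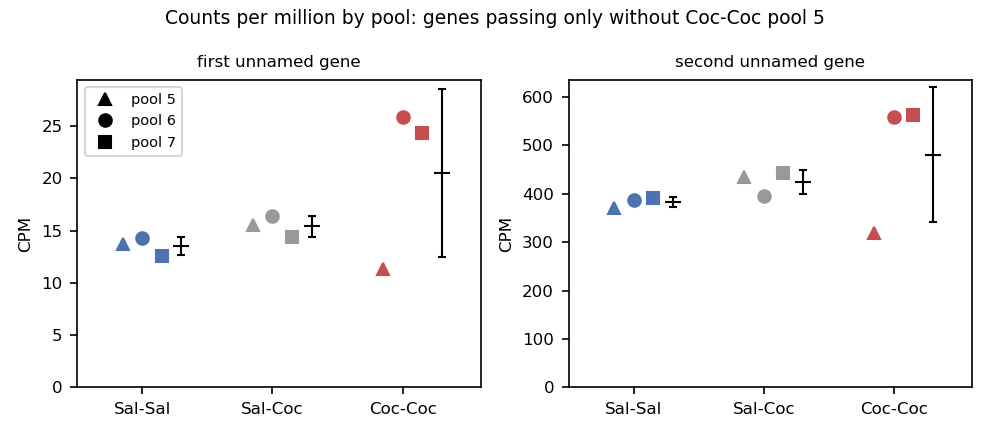
CPM (y axis, from 0) of the pair of unnamed genes that passed edgeR's quasi-likelihood test only when Coc-Coc pool 5 was left out. The 3 pools of each group (x axis) are shown, with the group mean ± SD in black. Coc-Coc pools 6 and 7 lie above, and pool 5 below, all Sal-Sal pools.

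Of the 4 genes that edgeR's quasi-likelihood test called without pool 5, 2 are described above. The others passed only without it, a choice that favours genes in which pool 5 differs from pools 6 and 7, and in both it lay on the far side of saline from them. The first of them was at 13.7, 14.3 and 12.6 CPM in Sal-Sal, at 25.9 and 24.4 CPM in Coc-Coc pools 6 and 7, and at 11.3 CPM in pool 5. Its log2 fold change was 0.6 ± 0.25 with pool 5 (edgeR adjusted p of 0.677) and 0.9 ± 0.09 without it (edgeR adjusted p of 0.00952). The second, an abundant gene, was at 370, 386 and 390 CPM in Sal-Sal, at 559 and 562 CPM in pools 6 and 7, and at 319 CPM in pool 5. Its log2 fold change was 0.33 ± 0.18 with pool 5 (edgeR adjusted p of 0.687) and 0.55 ± 0.06 without it (edgeR adjusted p of 0.0191). In both genes pools 6 and 7 nearly coincided, while pool 5 was below the lowest Sal-Sal pool. The technical replicates of the abundant gene ran from 370 to 415 CPM in Sal-Sal and from 322 to 569 CPM in Coc-Coc.

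The position of pool 5 was then counted over all genes. In 1033 genes (6.5%) all 3 Coc-Coc pools were above all Sal-Sal pools, and in 962 (6.06%) all were below. By pools 6 and 7 alone, 2004 genes (12.6%) were above every Sal-Sal pool and 1773 (11.2%) below. Among the 2004, pool 5 was above the Sal-Sal pools too in 51.5%, within their range in 22.4% and below them all in 26.1%. Among the 1773, it was below them in 54.3%, within their range in 19% and above them all in 26.7%. The same count made with another Coc-Coc pool held aside gave opposite shares of 13.1% and 15.9% for pool 6 and of 17% and 19.2% for pool 7. The share on the same side was alike for the 3 pools, at 48.7% and 50.3% for pool 6 and at 52.3% and 47.1% for pool 7. These shares describe where each pool lay and were not tested. The counts share the Sal-Sal pools and the choice of genes, and nothing on a difference from saline is read from them.

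The choice of pools also decided which genes came to the front. Of the 1146 genes with an unadjusted p under 0.05 with pool 5 and the 1057 without it, 556 were shared, which is 48.5% of the first list and 52.6% of the second. The fitted change had another sign without pool 5 in 3699 of 15884 genes (23.3%), and in 4 of the 1146 and 41 of the 1057. The fits share every pool but pool 5, and a small p favours a clear sign, so low numbers in these lists were built in. A further 135 genes were tested only without pool 5 and could not be compared. Of the 24 genes called by DESeq2 with all pools, 18 were also called without pool 5 and 6 were not. The 3 Coc-Coc pools did not overlap the Sal-Sal pools in any of the 24. The small p-values that chose the 24 favour such separation, which held for 6.5% of all tested genes upward and 6.06% downward. The 6 genes that were lost had log2 fold changes between -1.05 and 1.55 with pool 5 and between -0.83 and 0.9 without it, and each was smaller in size without it. Another 33 genes were called only without pool 5, a choice that favours genes in which pool 5 differs from pools 6 and 7. Pool 5 was beyond the Sal-Sal pools on the same side as pools 6 and 7 in 11 of the 33, within the Sal-Sal range in 9 and beyond it on the opposite side in 13. Over all genes with pools 6 and 7 above or below saline, the same-side shares were 51.5% and 54.3%. The opposite shares were 26.1% and 26.7%. The 33 ran from -1.33 to 1.42 without pool 5, with a median of 0.40, and up to 19300 CPM in abundance.

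**Figure D5:**
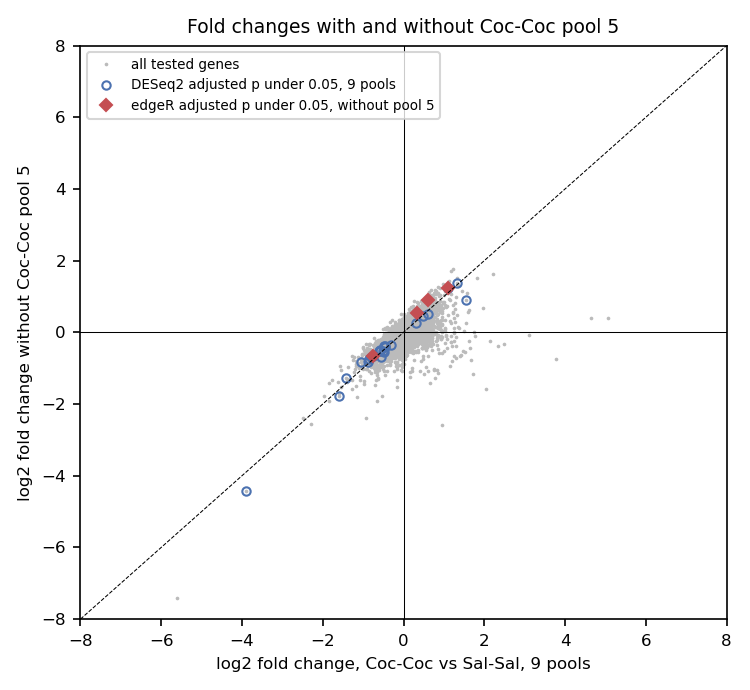
log2 fold change of Coc-Coc against Sal-Sal without Coc-Coc pool 5 (y axis) against that with all 9 pools (x axis), 1 grey point per gene, with the dashed line marking equal values. The 24 genes called by DESeq2 with all pools (open circles) all had non-overlapping pools, which fixes the same sign on both axes. The 4 genes called by edgeR's quasi-likelihood test without pool 5 (diamonds) all lie above the line.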

How the data were processed

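The deposited files held raw counts of reads per Ensembl gene for 36 samples, as whole numbers over the same 32402 gene IDs. The authors sequenced stranded poly(A) libraries and aligned reads with STAR to Ensembl's rat genome. They removed alignments to more than 1 place, which undercounts near-identical genes, and counted with HTSeq 0.5.3, per the labels and methods. Here the 4 technical replicates of a pool were summed, giving 3 pools a group. Totals of the 6 pools ran from 32220421 to 39493867. A count of 3 was 0.076 to 0.0931 CPM, for counting error only. Genes were kept by filterByExpr (minimum count 10, minimum total 15), scaled by TMM and tested in R 4.3.3 with edgeR 4.0.16 (glmQLFit in its current, not legacy, form, glmQLFTest, two-sided, Benjamini-Hochberg) over all 9 pools, and again without Coc-Coc pool 5. SEs were derived from the F statistic. CPM used effective library sizes, except for the count of 3 and the technical replicates of the abundant gene, which were scaled to raw totals. Pool distances and principal components were taken on log2 CPM (prior count 2). Alternatives were DESeq2 1.42.0 with its own size factors, voom in limma 3.58.1 with quality weights per pool, other edgeR tests, scalings and filters, the pool number as a block, and each pool left out. The scripts were tested on simulated data. DESeq2 and the block without pool 5 were planned. Running the other alternatives without it was chosen after seeing the data.

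The comparison, gene lists and tests were chosen with earlier results of these data known. The RefSeq table used here (GRCr8) matched 0 of the 32402 IDs, so the 24 lists, the marker genes and the genes Lrp1b, Vps13a and L3mbtl1 could not be looked up and are not analysed here. Genes to be named were the 8 higher and 8 lower genes with the smallest p among those whose pools did not overlap, genes past a threshold, list members, and genes farthest out in pool 5. Without names, only values and at most 2 IDs in each direction are given: those with the smallest p. Pools of the same number are different rats, and their deviations from the group means correlated at 0.0652, -0.162 and -0.0556 for numbers 5, 6 and 7.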

Additional observations from a re-analysis of the deposited data

How the results depend on the processing

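With all pools, edgeR's quasi-likelihood test called 0 genes as reported and under its older robust form, RLE and upper-quartile scaling, no filter, at least 10 counts in every pool, the 6 pools alone (smallest adjusted p of 0.79) and technical replicate a alone. DESeq2 gave 24 genes, the likelihood ratio test 21 and voom 2. Leaving out 1 pool gave 0 to 6 genes: 4 without Coc-Coc pool 5, 6 without Coc-Coc pool 6 and 0 in the other 4 cases. The 6 genes called without pool 6 were all lower in Coc-Coc, and 0 of them were among the 4 called without pool 5. Their edgeR adjusted p-values were 0.505 to 0.681 with all pools and 0.273 to 0.823 without pool 5. The unadjusted count of 1146 fell to 708 without Sal-Sal pool 6 and 731 without Sal-Sal pool 7, and was 1964 without Coc-Coc pool 6 and 1747 without Coc-Coc pool 7. Without Coc-Coc pool 5, the 4 genes became 51 in DESeq2, 57 in the likelihood ratio test, 7 with no filter and 2 with technical replicate a alone. Leaving out another pool then gave 0 to 4 genes: 0 without Sal-Sal pool 6 or Coc-Coc pool 7, and 2 without Sal-Sal pool 7 or Coc-Coc pool 6. The cause was not tested. The number of genes 2-fold away in pool 5 ran from 444 to 620 under its 3 alternatives. ENSRNOG00000042717 passed in 4 of 17 alternatives to the fit with all pools, and in 11 of 16 alternatives to the fit without pool 5. ENSRNOG00000014448 passed in 4 and 12, and the other 2 named genes in 2 and 2 each. The 17 include the fit that left out Coc-Coc pool 5, in which ENSRNOG00000042717 and ENSRNOG00000014448 passed. The direction of the named genes, fixed by their choice, is no sign of stability. The share of higher genes at an unadjusted p under 0.05 was 53.2% as reported, 49.7% under upper-quartile scaling and 46.4% with the 6 pools alone. It ran from 44.5% (without Sal-Sal pool 7) to 57.6% (without Coc-Coc pool 7).

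When pool number was added as a replicate block, edgeR called 0 genes with all pools (smallest adjusted p of 0.0728, with 1101 genes at an unadjusted p under 0.05), and 0 without Coc-Coc pool 5. The correlations of same-numbered pools were not all above 0.1, so the numbers were not read as pairs. Not every Coc-Coc pool correlated best with its own number.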
